A study of Homo sapiens with 9 samples.

Results

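The 40 genes described here act in mitosis: they encode the cyclins and kinases of mitotic entry, the chromosomal passenger complex, the spindle checkpoint, partners of the anaphase-promoting complex, kinetochore proteins, spindle motors and spindle-bound proteins, cytokinesis factors, chromosome proteins and the transcription factor FOXM1. They were taken from a list of symbols by name, and all 40 were found among the 16612 genes of the table and passed the filter on low counts that left 16312 genes. The RNA came from HNT34, a human acute myeloid leukemia (AML) cell line with high expression of EVI1, the product of the MECOM gene. One group received a control shRNA without a target (NT), and the other groups received sh#16 or sh#87, each directed against EVI1. RNA was taken on day 3 after selection, and each group has 3 libraries. All groups thus carry an shRNA vector and went through selection, untransduced cells are not part of the comparison, and everything was measured in a single cell line. The labels do not say whether the libraries of a group come from separate cultures, so p-values measure the spread between libraries only. One label field names the shRNA of the sh#87 libraries #18, while their titles and the study text give 87.

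Progress into mitosis is driven by CDK1 bound to cyclin B, with the kinases Aurora A, Aurora B and PLK1. Kinetochores join chromosomes to spindle microtubules, the spindle checkpoint holds back anaphase until every chromosome is attached, and the anaphase-promoting complex with CDC20 then marks securin and cyclin B for destruction. Transcripts of these genes are low in G1, rise through S phase and peak in G2 and mitosis, under the MuvB complex with B-MYB and FOXM1, so their level in bulk RNA also depends on the share of cells in those phases. In bulk RNA, fewer cells in G2 and mitosis and less RNA of these genes per cell cannot be told apart.

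Libraries held between 17096170 and 43502389 counts. Levels are given as CPM, the counts-per-million scale, each gene's share of its library's counts after scaling by the TMM method of edgeR, and 3 counts correspond to between 0.0648 and 0.164 CPM, far below every member. MECOM, the targeted gene, stood at 571, 504 and 440.5 CPM in NT, 145, 143 and 145 CPM with sh#16 and 109, 107 and 106 CPM with sh#87, so both knockdowns were seen in every library, and its level was lower with sh#87 than with sh#16, at a log2 difference of -0.43 (SE 0.089, adjusted p = 0.00661). MYC stood at 299, 366 and 444 CPM in NT, 256, 267 and 256 CPM with sh#16 and 111, 93.1 and 98.4 CPM with sh#87, with a direct log2 difference of -1.36 (SE 0.13, adjusted p = 0.000235). The NT libraries were less alike than those of the knockdowns: the median coefficient of variation of the 40 genes across NT libraries was 14.9%, and it was 3.21% for sh#16 and 4.84% for sh#87. Mitochondrially encoded genes took 15.9%, 11.5% and 4.69% of counts in the NT libraries, 2.69% to 2.88% for sh#16 and 4.62% to 5.97% for sh#87.

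Set directly against each other, the EVI1 shRNAs differed in these 40 genes almost always in a single direction. The list was chosen with earlier results of these data known, so the counts are descriptions. Of the 40 genes, 16 were lower and 0 higher with sh#87 than with sh#16 at an adjusted p of at most 0.01 from the quasi-likelihood test of edgeR with Benjamini-Hochberg adjustment, the rule for a called gene used throughout, with no threshold on fold change. Among all genes tested, 17.7% were called in this comparison, 9.42% lower and 8.29% higher. Without a threshold, the fitted log2 difference was below 0 for 39 of the 40 genes, with a median of -0.46, beside a median of -0.02 over all genes tested. In 36 of the 40 genes all sh#87 libraries lay below all sh#16 libraries, in 1 all lay above, and in 3 the groups overlapped, where 34.3% of all genes lay entirely below and 31.1% entirely above. The differences were modest in size, from -0.93 for UBE2C to 0.15 for ASPM. Genes called with a log2 difference of 2 or more in size were 0 of the 40 and 0.454% of all genes. Summed over the 40 genes, the level was 4563, 4587 and 4616 CPM in the sh#16 and 3591, 3347 and 3457 CPM in the sh#87 libraries.

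The number of calls in this direct comparison depended on which libraries set the spread. In a fit of the 6 knockdown libraries alone, without NT, 35 of the 40 genes were lower and 1, ASPM, was higher with sh#87, where 24.6% of all genes were lower and 23.5% higher. Without NT replicate 3, 30 genes were called lower, where 16.8% of all genes were. Leaving out any single library of sh#16 or sh#87 left 8 or 9, where 3.72% to 5.14% of all genes were lower. The share of mitochondrial counts also differed between the shRNAs, and without those genes 16 of the 40 genes were again lower. Under all 21 alternatives that kept the thresholds 8 genes were called, AURKA, CCNA2, CCNB1, CCNB2, CDK1, KIF11, MAD2L1 and UBE2C, and the others lost the call in between 5 and 10. In each of these 21 settings 39 of the 40 fitted differences were below 0. With a log2 difference of at least 1 in size also required, 0 of the 40 genes were called.

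**Figure D1:**
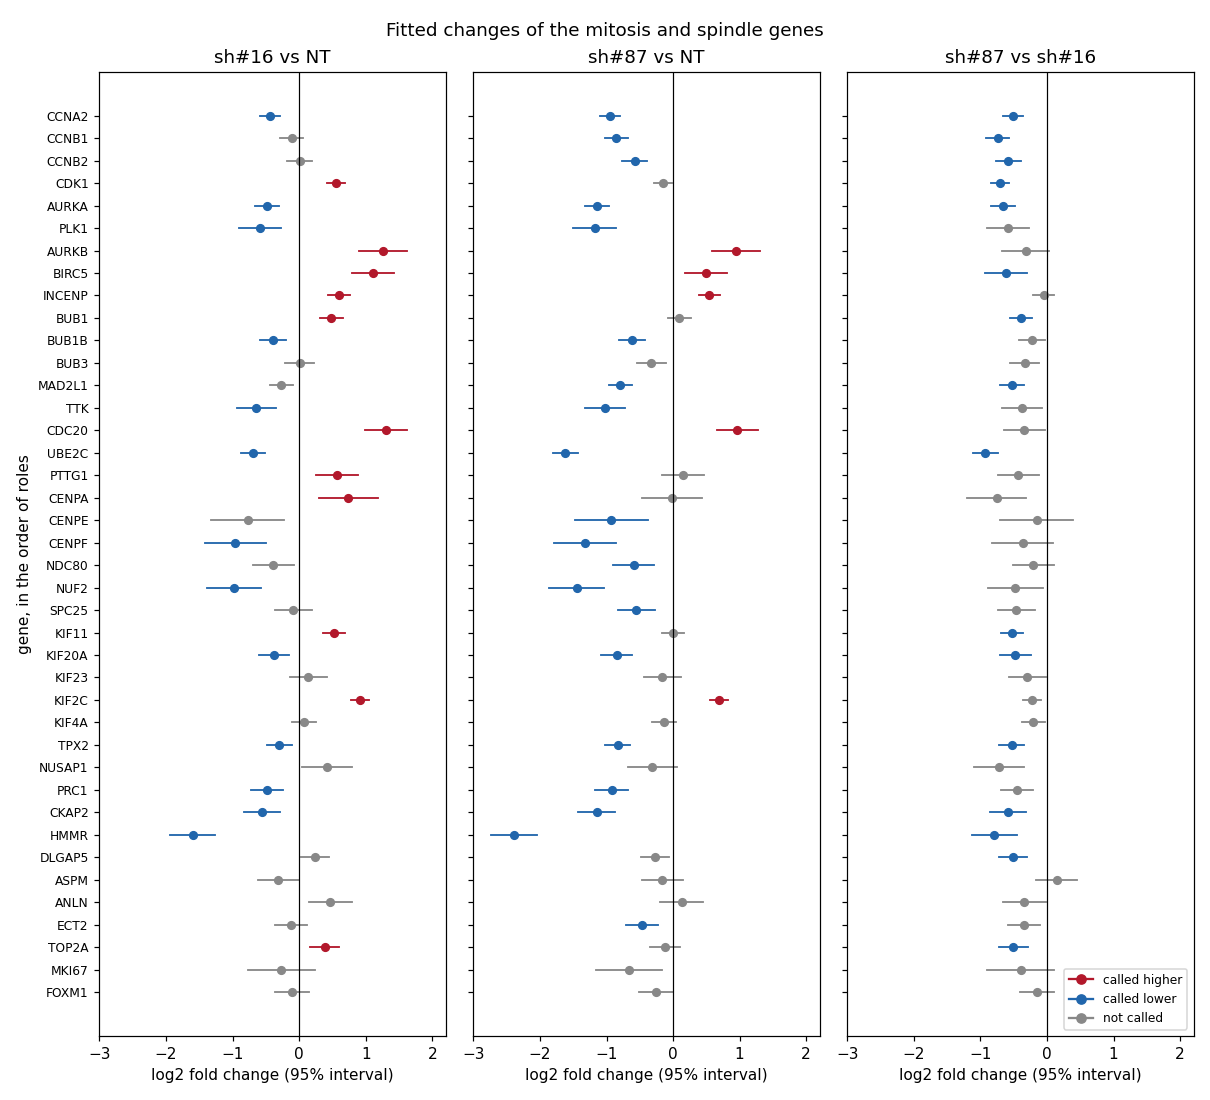
Fitted log2 fold changes (x axis, with 95% intervals) of the 40 mitosis and spindle genes (y axis, in the order of their roles) in the 3 comparisons, red for genes called higher, blue for genes called lower and grey for those not called at an adjusted p of 0.01. Against NT the genes lie on both sides of 0 with either shRNA, whereas 39 of the 40 points of the direct comparison lie to the left of 0.

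The promoters of several of these genes are printed because genes of G2 and mitosis are known for shared elements close to their starts. Many promoters of G2 and mitosis genes are known to carry a cell cycle gene homology region (CHR), the element to which MuvB binds, and CCAAT boxes, bound by NF-Y. RefSeq promoter windows (GRCh38.p14, 250 bases before to 50 after the annotated start) were found for 33 of the 40 genes, as 37 windows. AURKA, BIRC5, BUB3, TTK, UBE2C, TPX2 and FOXM1 had no window. Searched on both strands, TTTGAA was in 70.3% of the 37 windows and in 15.2% of all 35116 windows. TTTGAA or its variants, TTTAAA and TTCGAA, made up the forms counted as a CHR, of which at least 1 was in 89.2% and in 25.1%. CCAAT was in 78.4% and in 34.6%, and TTTGAA together with CCAAT in 56.8% and in 5.90%. Counted by gene, CCAAT was in 78.8% of the 33 genes and in 43.0% of tested genes with a window. On that count TTTGAA was in 72.7% and in 13.6%, any CHR form in 90.9% and in 22.7%, and TTTGAA together with CCAAT in 60.6% and in 5.69%. The E-box CACGTG, a known MYC motif, was in 13.5% and in 7.26%, and counted by gene it was in 15.2% of the 33 genes and in 12.3% of tested genes with a window. Among the 12 genes with a window that were lower with sh#87 than with sh#16, 10 had a CHR of any of the 3 forms, and 20 of the other 21 had one.

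The stretches below run from 150 bases before to 30 bases after the annotated start, 5′ to 3′ on the strand of the gene, with CHR forms and CCAAT boxes on either strand in capitals, so a box on the other strand reads ATTGG and the CHR there reads TTCAAA. CCNB1 (chr5:69167000-69167179), CCNB2 (chr15:59104996-59105175), CDK1 (chr10:60778328-60778507, the second of its windows), KIF11 (chr10:92592980-92593159), KIF20A (chr5:138178962-138179141) and HMMR (chr5:163460482-163460661) were lower with sh#87 than with sh#16, and CDC20 (chr1:43358831-43359010) is shown as a gene that was higher than in NT with both. All lie on the plus strand.
CCNB1: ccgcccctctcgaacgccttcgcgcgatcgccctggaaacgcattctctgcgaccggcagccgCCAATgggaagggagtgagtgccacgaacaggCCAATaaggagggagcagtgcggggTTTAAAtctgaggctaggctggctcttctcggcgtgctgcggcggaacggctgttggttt
CCNB2: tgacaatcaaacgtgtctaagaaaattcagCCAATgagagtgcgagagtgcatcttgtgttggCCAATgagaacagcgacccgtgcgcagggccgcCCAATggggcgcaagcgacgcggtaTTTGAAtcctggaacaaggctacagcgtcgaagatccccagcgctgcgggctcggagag
CDK1: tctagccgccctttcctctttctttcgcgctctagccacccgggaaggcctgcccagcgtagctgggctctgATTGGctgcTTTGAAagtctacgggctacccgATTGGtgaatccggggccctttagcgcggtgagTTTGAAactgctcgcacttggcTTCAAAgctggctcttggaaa
KIF11: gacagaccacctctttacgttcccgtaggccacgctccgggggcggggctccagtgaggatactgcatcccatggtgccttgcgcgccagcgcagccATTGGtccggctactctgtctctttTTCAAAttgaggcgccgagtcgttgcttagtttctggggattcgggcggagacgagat
KIF20A: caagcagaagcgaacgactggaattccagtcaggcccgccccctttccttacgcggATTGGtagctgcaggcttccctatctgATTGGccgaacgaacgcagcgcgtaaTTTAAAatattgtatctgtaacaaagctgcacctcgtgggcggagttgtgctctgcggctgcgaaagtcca
HMMR: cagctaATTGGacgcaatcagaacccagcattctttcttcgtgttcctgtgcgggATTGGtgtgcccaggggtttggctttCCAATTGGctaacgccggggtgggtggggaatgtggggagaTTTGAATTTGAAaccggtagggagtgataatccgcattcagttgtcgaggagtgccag
CDC20: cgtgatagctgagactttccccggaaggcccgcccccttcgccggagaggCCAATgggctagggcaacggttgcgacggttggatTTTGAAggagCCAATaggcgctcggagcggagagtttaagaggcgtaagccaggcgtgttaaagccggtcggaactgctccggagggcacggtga
In CCNB1, CCNB2 and KIF11 the CHR starts 30, 29 and 28 bases before the annotated start, with a CCAAT box 55, 54 and 53 bases before it. HMMR carries TTTGAA in immediate repeat at 28 and 22 bases before the start. Such matches describe letters and are no evidence of binding.

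Against NT, genes called higher and genes called lower stood side by side. With sh#16, 11 of the 40 were higher and 13 lower, a called share of 60.0%, equal to the 60.0% of all genes tested (29.8% higher and 30.2% lower). With sh#87, 5 were higher and 20 lower, a called share of 62.5% beside 67.9% of all genes (34.3% higher and 33.6% lower). The median log2 fold change of the 40 genes was -0.11 with sh#16 and -0.51 with sh#87, beside 0.04 and 0.04 over all genes. All sh#16 libraries lay above all NT libraries in 14 genes and below in 15, where 38.6% and 35.8% of all genes did so, and for sh#87 the counts were 5 and 23, beside 40.4% and 37.6%. Genes called with a log2 fold change of 2 or more in size were 0 of the 40 with sh#16 and 1, HMMR, with sh#87. Of all genes, 12.8% and 18.9% were called at that size. Both comparisons share the NT libraries. Scaling by total counts alone moved the median of all genes to 0.33 with either shRNA. With sh#16 it gave 16 genes higher and 4 lower, beside 38.0% and 21.0% of all genes, and with sh#87 it gave 9 and 15, beside 41.1% and 25.0%. Correcting for transcript length and GC content gave 16 and 10 with sh#16, beside 30.3% and 38.0%, and 10 and 18 with sh#87, beside 33.6% and 40.2%. Relative to the median of all genes, the members' median was -0.15 with sh#16 under both TMM and total counts and 0.15 with that correction, and with sh#87 it was -0.55, -0.53 and -0.13. With sh#16, 7 genes were lower without NT replicate 2, and without sh#16 replicate 1 or 2 there were 6 or 7, where 25.1% to 26.1% of all genes were lower. Calls with sh#16 that failed in 5 or more of the 21 alternative settings were those of TPX2, KIF20A, CENPA, BUB1B, PLK1, TOP2A, CKAP2, PRC1 and PTTG1, and with sh#87 those of CENPE, BIRC5, NDC80, SPC25 and ECT2.

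**Figure D2:**
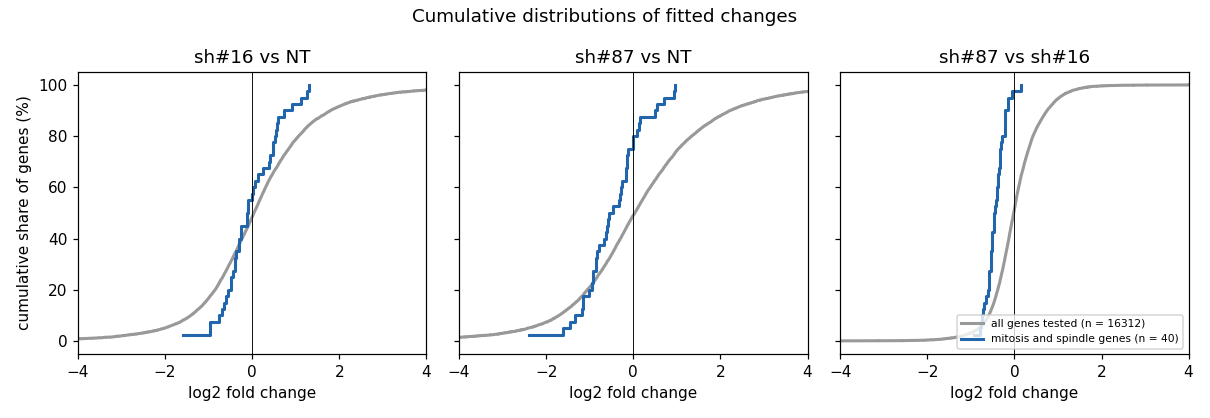
Cumulative share (y axis, %) of fitted log2 fold changes (x axis) of the 40 mitosis and spindle genes (blue) and of all 16312 genes tested (grey) in the 3 comparisons. With sh#16 against NT the curves cross a little below 0, with sh#87 against NT the blue curve lies to the left over most of its length, and in the direct comparison it lies to the left of the grey curve with a median of -0.46.

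Of the cyclins and mitotic kinases, 5 of 6 were lower with sh#87 than with sh#16, beside 9.42% of all genes. CCNB1, cyclin B1, which activates CDK1 at mitotic entry, stood at 56.9, 55.4 and 64.6 CPM in NT, 55.9, 54.5 and 53.0 CPM with sh#16 and 31.9, 33.7 and 32.2 CPM with sh#87. The NT and sh#16 libraries overlapped, and all sh#87 libraries lay below both. Its direct log2 difference was -0.74 (SE 0.076, adjusted p = 0.000271), and it was also lower with sh#87 than in NT, at -0.86 (SE 0.076, adjusted p = 6.76e-06). CCNB2, cyclin B2, stood at 42.6, 47.3 and 51.0 CPM in NT, 45.6, 48.7 and 47.2 CPM with sh#16 and 33.1, 29.8 and 31.5 CPM with sh#87, with the same arrangement of libraries. Between the shRNAs it differed by -0.58 (SE 0.084, adjusted p = 0.00126) on the log2 scale. CDK1, the kinase that cyclin B activates, stood at 68.8, 64.7 and 66.9 CPM in NT, 98.8, 94.1 and 102 CPM with sh#16 and 58.8, 61.4 and 60.2 CPM with sh#87. All sh#16 libraries lay above NT and all sh#87 libraries slightly below. CDK1 was higher with sh#16 than in NT by 0.55 (SE 0.058, adjusted p = 2.93e-05), was not called with sh#87 against NT (adjusted p = 0.0389), and differed between the shRNAs by -0.71 (SE 0.058, adjusted p = 0.000131).

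CCNA2, cyclin A2, which acts in S phase and G2, stood at 87.8, 80.8 and 79.9 CPM in NT, 65.0, 59.0 and 60.1 CPM with sh#16 and 43.99, 42.9 and 41.9 CPM with sh#87. The groups followed each other without overlap, NT highest and sh#87 lowest, and the log2 fold change was -0.43 (SE 0.067, adjusted p = 0.000343) with sh#16, -0.95 (SE 0.068, adjusted p = 1.73e-06) with sh#87 and -0.52 (SE 0.068, adjusted p = 0.000816) between them. AURKA, the Aurora A kinase of the centrosome, stood at 41.7, 45.1 and 47.1 CPM in NT, 31.6, 32.1 and 32.2 CPM with sh#16 and 18.7, 20.8 and 21.1 CPM with sh#87. It fell in the same order, with log2 fold changes of -0.48 and -1.14 against NT and -0.66 (SE 0.079, adjusted p = 0.000514) between the shRNAs. PLK1, the Polo-like kinase of mitotic entry, stood at 52.7, 69.3 and 79.8 CPM in NT, 45.2, 45.7 and 43.1 CPM with sh#16 and 33.0, 28.1 and 28.2 CPM with sh#87. Its groups did not overlap, and it was lower than in NT with sh#16 (-0.59, SE 0.14, adjusted p = 0.00411) and sh#87 (-1.18, SE 0.14, adjusted p = 5.20e-05). The direct difference of -0.59 (SE 0.14, adjusted p = 0.0127) missed the threshold, with a 95% interval from -0.91 to -0.27.

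The chromosomal passenger complex corrects faulty attachments at the centromere, and the 3 of its genes among the 40 were called higher than in NT with either shRNA. Among all genes, 29.8% were called higher with sh#16 and 34.3% with sh#87. CDCA8, borealin, a further subunit counted with the other kinetochore genes, was higher with sh#16 (0.58, SE 0.12, adjusted p = 0.00177) and not called with sh#87 (adjusted p = 0.0715). AURKB, its kinase, stood at 15.1, 18.8 and 25.1 CPM in NT, 47.2, 48.1 and 46.7 CPM with sh#16 and 38.1, 35.9 and 39.8 CPM with sh#87. Every knockdown library lay above every NT library, at log2 fold changes of 1.26 (SE 0.16, adjusted p = 8.83e-05) with sh#16 and 0.95 (SE 0.16, adjusted p = 0.000442) with sh#87. BIRC5, survivin, stood at 27.5, 33.3 and 42.9 CPM in NT, 72.2, 75.1 and 77.2 CPM with sh#16 and 50.4, 49.9 and 46.2 CPM with sh#87. It rose by 1.11 (SE 0.14, adjusted p = 9.44e-05) with sh#16 and 0.50 (SE 0.14, adjusted p = 0.00937) with sh#87, and its direct difference was -0.62 (SE 0.14, adjusted p = 0.00962), and both the call with sh#87 against NT and that between the shRNAs held in 11 of 21 alternative settings. BIRC5 lies where reads of an antisense transcript could be counted, and how the counting used strand is not stated for this table. INCENP, the scaffold of the complex, stood at 70.7, 71.2 and 64.4 CPM in NT, 99.0, 109.8 and 103 CPM with sh#16 and 106, 96.5 and 97.9 CPM with sh#87. It rose by 0.60 (SE 0.071, adjusted p = 6.57e-05) and 0.54 (SE 0.071, adjusted p = 9.05e-05), and with the correction for length and GC content neither call remained and the change with sh#87 turned to -0.07. Between the shRNAs INCENP had a direct difference of -0.05 and a 95% interval from -0.21 to 0.11. For AURKB the interval ran from -0.67 to 0.03.

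Of the 5 spindle checkpoint genes, 2 were lower with sh#87 than with sh#16, beside 9.42% of all genes. MAD2L1, the checkpoint protein MAD2, stood at 61.1, 60.4 and 57.7 CPM in NT, 48.8, 47.3 and 53.0 CPM with sh#16 and 33.7, 37.2 and 32.5 CPM with sh#87. Its groups did not overlap, with a direct difference of -0.53 (SE 0.077, adjusted p = 0.00137) and a log2 fold change of -0.79 (SE 0.077, adjusted p = 1.25e-05) for sh#87 against NT. BUB1, a checkpoint kinase, stood at 157, 147 and 127 CPM in NT, 199, 202 and 200.7 CPM with sh#16 and 151, 153 and 155 CPM with sh#87. The sh#16 libraries lay above all others, while NT and sh#87 overlapped, with 0.48 (SE 0.076, adjusted p = 0.000354) for sh#16 against NT and -0.39 (SE 0.076, adjusted p = 0.00473) for the direct difference. BUB3, the partner that brings BUB1 to kinetochores, stood at 125, 131 and 163.44 CPM in NT, 142, 139 and 141 CPM with sh#16 and 108, 112 and 114 CPM with sh#87. Its sh#87 libraries lay below all others, but it was not called in any comparison, and its direct difference of -0.34 (SE 0.096, adjusted p = 0.0253) had a 95% interval from -0.56 to -0.12. BUB1B, which encodes BUBR1, and TTK, the kinase MPS1, were lower than in NT with both shRNAs, with log2 fold changes for sh#16 and sh#87 in turn of -0.39 and -0.62 for BUB1B and -0.65 and -1.02 for TTK.

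The partners of the anaphase-promoting complex moved apart from each other. CDC20, its activator, stood at 21.9, 28.1 and 34.2 CPM in NT, 67.8, 69.6 and 70.7 CPM with sh#16 and 54.4, 53.2 and 56.9 CPM with sh#87. It showed the largest fitted rise among the 40 genes with either shRNA, 1.30 (SE 0.14, adjusted p = 3.04e-05) with sh#16 and 0.96 (SE 0.14, adjusted p = 0.000158) with sh#87, and all knockdown libraries lay above NT. Between the shRNAs the CDC20 difference was -0.34 (95% interval -0.64 to -0.03, adjusted p = 0.0823). UBE2C, the ubiquitin-conjugating enzyme that works with the complex, stood at 21.7, 21.7 and 22.1 CPM in NT, 12.8, 14.2 and 13.6 CPM with sh#16 and 7.57, 6.97 and 6.81 CPM with sh#87. The NT libraries hardly varied in UBE2C, with a coefficient of variation of 1.14%, which was 5.43% for sh#16 and 5.60% for sh#87. Its groups formed 3 separate steps, with -0.69 (SE 0.079, adjusted p = 4.92e-05) for sh#16, -1.62 (SE 0.082, adjusted p = 2.12e-07) for sh#87 and -0.93 (SE 0.082, adjusted p = 0.00016) for the direct difference, the largest of the 40. PTTG1, securin, which the complex destroys at anaphase, stood at 31.9, 28.0 and 21.0 CPM in NT, 38.0, 38.5 and 43.7 CPM with sh#16 and 29.98, 29.3 and 29.9 CPM with sh#87. It was higher than in NT with sh#16 (0.57, SE 0.14, adjusted p = 0.00468) and overlapped NT with sh#87, and the direct difference of -0.43 (SE 0.14, adjusted p = 0.0407) missed the threshold. PTTG1 has near-identical copies elsewhere in the genome, so its counts are uncertain.

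**Figure D3:**
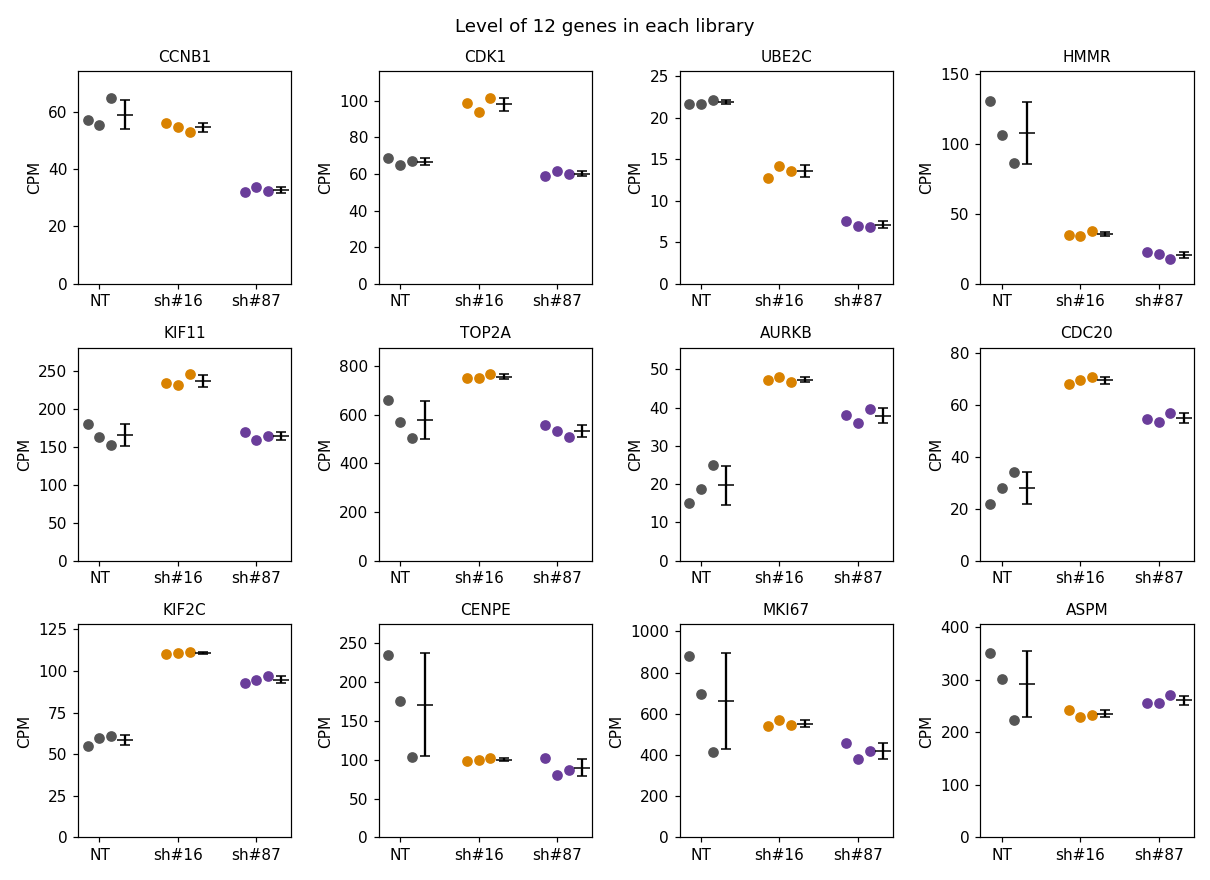
Level in CPM (y axis, starting at 0) of 12 genes in the 3 libraries of each group (points), with the mean and SD beside them (black). CCNB1, UBE2C and HMMR are lowest with sh#87, CDK1, KIF11 and TOP2A are highest with sh#16, AURKB, CDC20 and KIF2C are lowest in NT, and CENPE, MKI67 and ASPM spread widely among the NT libraries.

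Among the 6 centromere and kinetochore genes, 0 were called between the shRNAs, while 5 were lower with sh#87 than in NT. Of all genes, 17.7% were called between the shRNAs and 33.6% were lower with sh#87 than in NT. CENPA, the histone variant of centromeres, stood at 10.8, 13.2 and 20.5 CPM in NT, 26.7, 24.3 and 23.7 CPM with sh#16 and 14.6, 14.9 and 14.7 CPM with sh#87. All sh#16 libraries lay above NT (0.74, SE 0.20, adjusted p = 0.00784), while sh#87 overlapped NT, and the direct difference of -0.76 (SE 0.20, adjusted p = 0.018) did not pass. CENPE, the kinetochore motor, stood at 235, 176 and 103 CPM in NT, 98.9, 99.2 and 102 CPM with sh#16 and 102, 80.5 and 87.2 CPM with sh#87. Here the NT libraries differed 2.28-fold among themselves, and only the fall with sh#87 was called (-0.93, SE 0.24, adjusted p = 0.00653), a call that held in 8 of 21 alternative settings, with a 95% interval of the direct difference from -0.71 to 0.39. CENPF, a large kinetochore protein, and NUF2, of the NDC80 complex, fell with both shRNAs, with log2 fold changes of -0.96 and -1.33 for CENPF and, for NUF2, of -0.98 and -1.45. NUF2 stood at 43.8, 37.2 and 25.0 CPM in NT, 18.2, 16.8 and 18.8 CPM with sh#16 and 13.6, 12.7 and 12.4 CPM with sh#87. NDC80, which gives that complex its name, stood at 59.9, 53.5 and 39.96 CPM in NT, 37.2, 38.3 and 41.7 CPM with sh#16 and 34.1, 32.2 and 35.3 CPM with sh#87. It was called lower with sh#87 alone (-0.59, SE 0.14, adjusted p = 0.00298), and SPC25, a further subunit, likewise (-0.55, SE 0.12, adjusted p = 0.00272). The calls of NDC80 and SPC25 each held in 14 of 21 alternative settings.

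Of the 5 kinesin motors, 2 were lower with sh#87 than with sh#16, beside 9.42% of all genes. KIF11, which pushes spindle poles apart, stood at 181, 162.98 and 152 CPM in NT, 235, 231 and 246 CPM with sh#16 and 170.1, 159 and 165 CPM with sh#87. Its sh#16 libraries lay above all others while NT and sh#87 overlapped, with 0.52 (SE 0.073, adjusted p = 0.000173) for sh#16 against NT and -0.53 (SE 0.073, adjusted p = 0.00102) for the direct difference. KIF20A, a motor of late mitosis, stood at 35.8, 35.7 and 29.2 CPM in NT, 26.6, 26.4 and 24.6 CPM with sh#16 and 17.9, 17.9 and 20.2 CPM with sh#87. It was lower than in NT with sh#16 (-0.37, SE 0.10, adjusted p = 0.00784), a call that held in 7 of 21 alternative settings, and with sh#87 (-0.85, SE 0.10, adjusted p = 4.84e-05), with -0.47 (SE 0.10, adjusted p = 0.00742) between the shRNAs. KIF2C, which takes apart microtubules at kinetochores, stood at 55.0, 59.9 and 60.7 CPM in NT, 110.1, 111 and 111 CPM with sh#16 and 92.7, 94.7 and 96.8 CPM with sh#87. It was higher than in NT by 0.92 (SE 0.059, adjusted p = 1.33e-06) with sh#16 and 0.69 (SE 0.059, adjusted p = 5.02e-06) with sh#87, and the direct difference of -0.23 (SE 0.058, adjusted p = 0.017) missed the threshold although the libraries did not overlap. KIF23, of the central spindle, and KIF4A, a chromosome-bound motor, were not called in any comparison, with 95% intervals of the direct difference from -0.57 to -0.02 and from -0.38 to -0.03.

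Of the 7 spindle-bound proteins, 4 were lower with sh#87 than with sh#16, beside 9.42% of all genes. HMMR, a microtubule-binding protein also known as a hyaluronan receptor, stood at 130.1, 106 and 86.0 CPM in NT, 34.7, 34.3 and 37.5 CPM with sh#16 and 22.5, 21.0 and 17.8 CPM with sh#87. It had the lowest fitted change of the 40 genes against NT with either shRNA, -1.60 (SE 0.15, adjusted p = 1.31e-05) and -2.39 (SE 0.15, adjusted p = 8.43e-07), and its direct difference was -0.79 (SE 0.15, adjusted p = 0.00421). TPX2, which activates Aurora A on the spindle, stood at 282, 292 and 234 CPM in NT, 222, 217 and 217 CPM with sh#16 and 155, 149 and 150.2 CPM with sh#87. With sh#87 it changed by -0.83 (SE 0.084, adjusted p = 1.61e-05) against NT and differed between the shRNAs by -0.53 (SE 0.084, adjusted p = 0.00194), while its call with sh#16 (-0.30, SE 0.083, adjusted p = 0.00943) held in 4 of 21 alternative settings, and the change was at 0.002 when libraries were scaled by total counts alone. CKAP2, of the spindle poles, stood at 226, 197 and 154 CPM in NT, 131, 133 and 127 CPM with sh#16 and 90.5, 82.1 and 88.0 CPM with sh#87. Its direct difference was -0.59 (SE 0.12, adjusted p = 0.00656). DLGAP5, which stabilizes kinetochore fibres, stood at 52.6, 49.0 and 41.1 CPM in NT, 57.6, 53.9 and 57.0 CPM with sh#16 and 39.96, 37.9 and 39.9 CPM with sh#87. Its sh#16 libraries lay above NT and its sh#87 libraries below, and it was called in the direct comparison only (-0.52, SE 0.093, adjusted p = 0.00344).

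ASPM, a protein of spindle poles, was the exception to the direction of the others, at 351, 301 and 225 CPM in NT, 243, 230.3 and 233 CPM with sh#16 and 256, 256 and 270.4 CPM with sh#87. Its sh#87 libraries lay above its sh#16 libraries and both groups lay within the range of NT. The direct difference was 0.15 (95% interval -0.16 to 0.46, adjusted p = 0.431). NUSAP1, which bundles microtubules, had a direct difference of -0.73 just outside the threshold (adjusted p = 0.01004), and PRC1, which crosslinks the central spindle, one of -0.45 (adjusted p = 0.0122).

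Of the cytokinesis genes, 0 of 2 were called between the shRNAs, beside 17.7% of all genes. ANLN, anillin, which shapes the contractile ring, stood at 97.0, 84.8 and 60.3 CPM in NT, 116, 108 and 112 CPM with sh#16 and 89.9, 85.8 and 88.9 CPM with sh#87. Its sh#16 libraries lay highest, with a direct difference of -0.34 (95% interval -0.67 to -0.02). ECT2, which activates RhoA at the cleavage furrow, stood at 67.6, 56.3 and 50.5 CPM in NT, 52.0, 51.8 and 56.0 CPM with sh#16 and 43.7, 39.7 and 42.4 CPM with sh#87. It was lower with sh#87 than in NT (-0.47, SE 0.11, adjusted p = 0.00274), a change that turned to 0.04 with the correction for length and GC content. TOP2A, the topoisomerase that untangles sister chromatids, stood at 663, 571 and 506 CPM in NT, 753, 751 and 769.9 CPM with sh#16 and 558, 534 and 508 CPM with sh#87. Its sh#16 libraries lay above all others, with 0.39 (SE 0.097, adjusted p = 0.00593) against NT and -0.51 (SE 0.097, adjusted p = 0.00466) between the shRNAs. MKI67, the proliferation marker Ki-67, stood at 879, 697 and 416 CPM in NT, 539, 570.5 and 547 CPM with sh#16 and 457, 382 and 419.9 CPM with sh#87. It was not called in any comparison, and the interval of its direct difference ran from -0.90 to 0.10. FOXM1, which activates many of these genes, stood at 57.2, 68.0 and 76.2 CPM in NT, 62.1, 66.6 and 58.8 CPM with sh#16 and 58.5, 50.8 and 59.1 CPM with sh#87. It overlapped in all comparisons and was not called, with a direct difference of -0.16 and a 95% interval from -0.41 to 0.10.

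**Figure D4:**
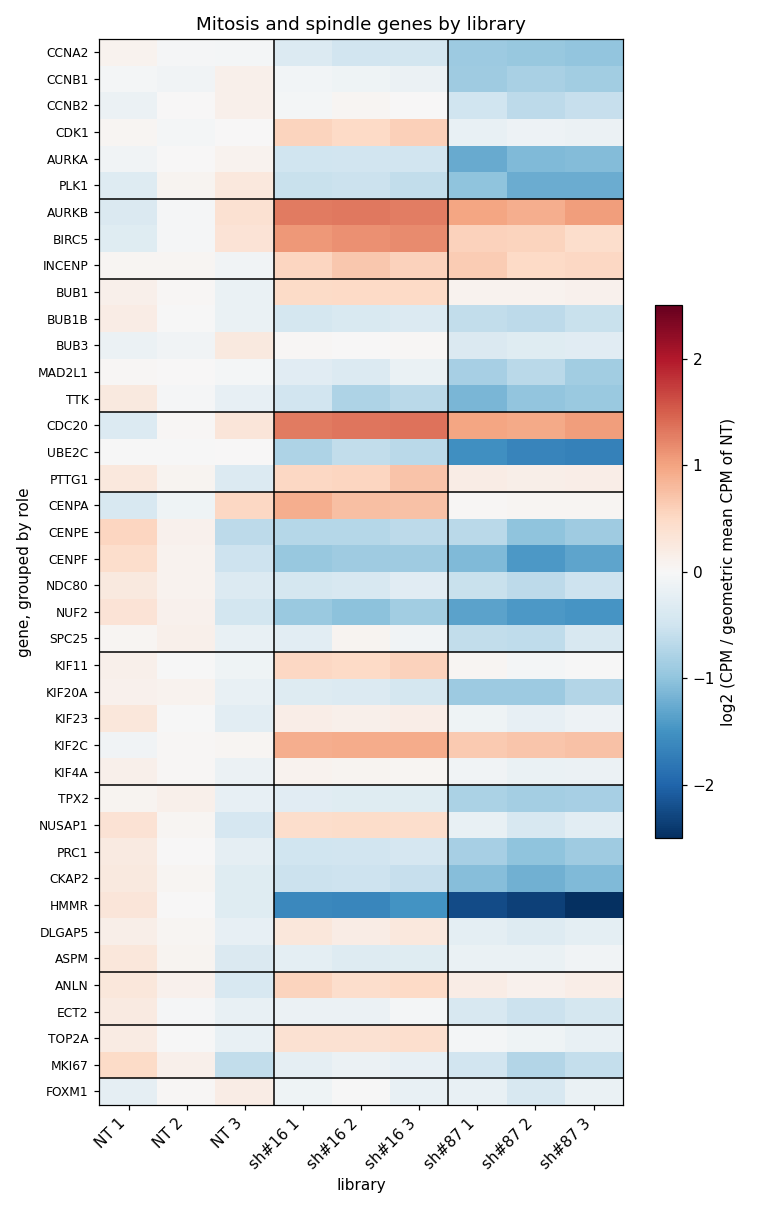
Level of the 40 mitosis and spindle genes (y axis, grouped by role with black lines) in the 9 libraries (x axis) as log2 of CPM over the geometric mean of the NT libraries, red above and blue below. The NT columns grade into each other, with 25 genes highest in NT replicate 1 and 12 in NT replicate 3, while the 3 columns of each shRNA look alike.

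The NT libraries differed from each other in these genes, in both directions. In 25 of the 40 genes NT replicate 1 was the highest, in 3 replicate 2 and in 12 replicate 3. The 25 genes had a median transcript GC content of 39.6% and the 12 a median of 50.6%. MKI67 differed 2.11-fold between the highest and the lowest NT library and CENPE 2.28-fold. Across the 40 genes the Pearson correlation of the log2 fold change with GC content was 0.41 with sh#16 and 0.40 with sh#87 against NT and 0.08 between the shRNAs, and with log2 transcript length it was -0.24, -0.07 and 0.50. These are descriptions across genes of the same libraries, and the part of base composition, length or mitochondrial RNA in the results was not tested.

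Other genes of these pathways were counted from separate lists. Between the shRNAs their called shares ran from 5.88% to 40%, with the other kinetochore genes at 17.1%. Of all genes tested 17.7% were called, 8.29% higher and 9.42% lower. Of 35 other kinetochore genes, 4 were higher and 2 lower with sh#87 than with sh#16, from CENPT, of the constitutive centromere network (0.66, SE 0.063, adjusted p = 0.000199), to PMF1, of the MIS12 complex (-0.83, SE 0.15, adjusted p = 0.00342). Against NT, 13 were higher and 6 lower with sh#16, and 12 and 8 with sh#87, with CENPI, of the centromere network, at 1.87 and 2.18 and PMF1 at -2.15 and -2.98 as the extremes. The called shares of 54.3% and 57.1% lay below the 60.0% and 67.9% of all genes. Of 32 other kinesin and spindle genes, 1 was higher, the cytokinesis kinase CIT (0.36, SE 0.073, adjusted p = 0.00615), and 3 were lower, with DEPDC1 (-0.57, SE 0.072, adjusted p = 0.000672) the lowest. Of 17 mitotic entry regulators, 0 were higher and 5 lower, among them CKS1B, a CDK subunit, at 51.3, 49.7 and 46.6 CPM in NT, 34.3, 36.5 and 36.8 CPM with sh#16 and 19.7, 21.7 and 21.9 CPM with sh#87 (-0.77, SE 0.076, adjusted p = 0.000238).

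Of 18 condensin and cohesin genes, 0 were higher and 3 lower between the shRNAs, and STAG2, a cohesin subunit, fell furthest, from 458, 396 and 349 CPM in NT to 68.8, 69.1 and 72.7 CPM with sh#16 and 48.9, 44.8 and 44.7 CPM with sh#87. Among 17 subunits and regulators of the anaphase-promoting complex 0 were higher and 1, ANAPC16 (-0.57, SE 0.10, adjusted p = 0.00344), was lower. Of 12 MuvB and DREAM genes, 1 was higher and 2 lower, with LIN37 at 0.47 (SE 0.096, adjusted p = 0.00615) and RBBP4 at -0.28 (SE 0.057, adjusted p = 0.00609). Of 25 S phase genes, 3 were higher and 7 lower, from POLE, a DNA polymerase (0.64, SE 0.11, adjusted p = 0.00329), to TYMS, thymidylate synthase (-0.79, SE 0.069, adjusted p = 0.000154). Summed S phase levels were 3496, 3508 and 3513 CPM in the sh#16 and 3301, 3245 and 3273 CPM in the sh#87 libraries. Of 20 G1 regulators, 1 was higher, the inhibitor CDKN1B (0.29, SE 0.059, adjusted p = 0.00655), and 2 were lower, with CCND2, cyclin D2, at -0.51 (SE 0.064, adjusted p = 0.000654).

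Against NT, the called shares of these lists ran from 52% to 100% with sh#16 and from 57.1% to 88.9% with sh#87, beside 60.0% and 67.9% of all genes. The same lists held genes on both sides of 0 with either shRNA, and the extremes among the called genes were as follows, each with its log2 fold change for sh#16 and sh#87 in turn. Of the other kinesin and spindle genes, 13 were higher and 6 lower with sh#16, and 13 and 10 with sh#87. FAM83D, a spindle protein, was highest with sh#16 (1.56) and HAUS1, an augmin subunit, lowest (-0.66), while KIFC1, a minus-end motor, was highest (1.21) and DEPDC1 lowest (-1.22) with sh#87. Of the condensin and cohesin genes, 8 were higher and 10 lower, and 6 and 10. STAG2 was lowest with both (-2.52 and -3.12), and CDCA5, sororin (1.53), and NCAPH2, of condensin II (1.80), were highest. Of the anaphase-promoting complex genes, 5 were higher and 8 lower, and 5 and 10, from ANAPC13 (-1.28 and -1.67) to ANAPC11 (2.41 and 2.12). Of the mitotic entry regulators, 9 were higher and 6 lower, and 8 and 7, from LMNB1, lamin B1 (-1.32 and -2.02), to PKMYT1, the inhibitory kinase MYT1 (1.64 and 1.71). Of the MuvB and DREAM genes, 2 were higher and 6 lower with each, and the subunits LIN9 (-1.79 and -2.23) and LIN37 (1.10 and 1.57) were the extremes. Of the S phase genes, 7 were higher and 6 lower, and 9 and 11, from TYMS (-0.86 and -1.65) to RRM2, a ribonucleotide reductase subunit (1.39 and 1.46). Of the G1 regulators, 9 were higher and 6 lower, and 10 and 6, with CCND1, cyclin D1, lowest with both (-4.60 and -4.90) and the CDK inhibitors CDKN2D (2.27) and CDKN1A, p21 (2.39), highest with sh#16 and sh#87.

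Markers of the cell line moved with the same comparison. The 6 AML markers tested, MECOM among them, summed to between 2144 and 2409 CPM in NT, 491 to 496 CPM with sh#16 and 319.5 to 325 CPM with sh#87, and 5 of them were lower with sh#87 than with sh#16, with CD34, the stem and progenitor antigen, at -1.46 (SE 0.070, adjusted p = 1.38e-05). PTPRC, the leukocyte antigen CD45, was at 895, 850.5 and 821 CPM in NT, 142, 137 and 148 CPM with sh#16 and 103, 101 and 96.4 CPM with sh#87, and CD33 at 40.04, 43.6 and 44.5 CPM in NT, 37.6, 39.3 and 37.1 CPM with sh#16 and 33.1, 36.0 and 36.2 CPM with sh#87. The 6 markers of other cell types that were tested summed to between 245 and 385 CPM in NT, 90.6 to 93.4 CPM with sh#16 and 71.8 to 72.8 CPM with sh#87, mostly VWF in NT. COL1A1 was at 0.172, 0.0433 and 0.133 CPM in NT, 26.9, 25.9 and 26.3 CPM with sh#16 and 29.5, 30.3 and 28.1 CPM with sh#87. Between the shRNAs 1 of these 6, CDH5, was called, at -1.45 (SE 0.15, adjusted p = 0.000329). Of all genes tested, 17.7% were called in that comparison, 9.42% lower. The part of such differences in the values of the mitotic genes was not tested.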

How the data were processed

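RNA-seq libraries of HNT34 cells, 3 for each of NT, sh#16 and sh#87, were made with a stranded poly-A kit. The table deposited by the authors holds estimated counts per gene symbol, not normalised. Its header names salmon, the study's methods name FastQC, STAR and GRCh38, and which of them made the table is not given in the sources used here. Groups were taken from the sample labels. Counts were tested with edgeR 4.0.16 in R 4.3.3 (filterByExpr, TMM scaling, a quasi-likelihood fit of all 9 libraries, Benjamini-Hochberg adjustment over 16312 genes). A gene was called at an adjusted p of at most 0.01, with no fold threshold. SE is the log2 fold change over the square root of F, and intervals are 95%. The procedure was tested on simulated data that gave each gene the same spread in all groups. The wider spread of the NT libraries was therefore not covered by that test. limma 3.58.1 and DESeq2 1.42.0 served for alternatives, as did other scalings, filters, thresholds and left-out libraries. Scaling by total counts alone and a loess correction for transcript length and GC content (13854 genes with both values) were chosen after seeing the data. Promoter windows came from RefSeq (GRCh38.p14). Libraries held 17096170 to 43502389 counts, and 3 counts equal 0.0648 to 0.164 CPM. The members and all gene lists were chosen with earlier results of these data known, so counts over them are descriptions. Named genes were 25 leading members, the 5 highest and 5 lowest of each comparison, the 12 largest differences called between the shRNAs, the extreme called genes of each other list, MECOM and MYC. ANLN, BUB1B, TTK, SPC25, KIF23 and PRC1 were added after their values were seen, so that every member is accounted for. PTPRC and CDCA8 were also added after their values were seen. The values of 1 marker are not reported here.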

Additional observations from a re-analysis of the deposited data

Results flagged for a closer look

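In 16 of the 40 genes the effect of the shRNAs against the same NT libraries differed between sh#16 and sh#87, as tested by the direct comparison (edgeR, adjusted p of at most 0.01). Among all genes tested, 17.7% were called in this comparison, 9.42% lower. Each of the 16 was lower with sh#87, with all 3 libraries below all sh#16 libraries. A call from these same libraries largely fixes that separation, so it adds nothing to the call. Of all 40 genes, called or not, 36 lay entirely below, beside 34.3% of all genes tested. The calls of BIRC5, BUB1, KIF20A, TPX2, CKAP2, HMMR, DLGAP5 and TOP2A were lost in between 5 and 10 of 21 alternative settings. The log2 differences of the cyclins and kinases were -0.52 for CCNA2, -0.74 for CCNB1, -0.58 for CCNB2, -0.71 for CDK1 and -0.66 for AURKA. Among the passenger complex, checkpoint and anaphase genes they were -0.62 for BIRC5, -0.39 for BUB1, -0.53 for MAD2L1 and -0.93 for UBE2C. For the motors KIF11 and KIF20A they were -0.53 and -0.47. The spindle-bound proteins TPX2, CKAP2, HMMR and DLGAP5 stood at -0.53, -0.59, -0.79 and -0.52, and TOP2A at -0.51. Against NT, CDK1, BUB1, KIF11 and TOP2A were called higher with sh#16 and were not called with sh#87. In the same comparison MECOM stood at -0.43 and MYC at -1.36 on the log2 scale, and the mitochondrial share of counts was higher, and the part of these in the differences was not tested.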

How the results depend on the processing

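In the direct comparison, 39 of the 40 fitted differences stayed below 0 under all alternatives, while their sizes and the count of calls moved. Lower were 34 genes with limma-voom and a weight per group (23.2% of all genes), 35 with only the compared groups (24.6%, with 1 higher beside 23.5%), and 25 at an adjusted p of 0.05 (17.7%). At a log2 fold change of 1 or of 2 there were 0, beside 1.55% and 0.166% of all genes. Leaving out 1 library gave 8 to 30 lower and 0 to 0 higher, where 3.72% to 16.8% and 2.88% to 15.5% of all genes were. With sh#16 against NT, 7 genes were lower with only the compared groups (26.9% of all genes) and 4 with total counts (21.0%). A log2 fold change of 1 left 3 higher and 1 lower, beside 18.5% and 15.5% of all genes. One of 2 left 0 and 0, beside 7.95% and 4.84%. Leaving out 1 library gave 8 to 13 higher and 6 to 18 lower, where 24.6% to 34.0% and 25.1% to 34.2% of all genes were. With sh#87 against NT, 9 genes were higher with total counts (41.1% of all genes) and 10 with the length and GC correction (33.6%). A log2 fold change of 1 left 0 higher and 8 lower, beside 23.9% and 19.9% of all genes. One of 2 left 0 and 1, beside 11.7% and 7.14%. Leaving out 1 library gave 4 to 5 higher and 16 to 26 lower, where 30.1% to 37.5% and 29.3% to 36.4% of all genes were. TPX2 with sh#16 turned to 0.0021 with total counts, and INCENP and ECT2 with sh#87 to -0.071 and 0.037 with the length and GC correction. The cause of these changes was not tested. Of the values of called genes under the alternatives, 418 of sh#16 kept their call, 85 lost it and 1 reversed, and of sh#87 480 kept it, 43 lost it and 2 reversed. Deviations of same-numbered NT and sh#16 libraries correlated at 0.0688 to 0.0826, and those of differently numbered ones at -0.0659 to -0.00915. With sh#87, same-numbered libraries of the other groups correlated at -0.137 to -0.00271 and differently numbered ones at -0.104 to 0.150. Whether libraries of different groups were paired or shared a batch was not tested. A block on the library number left 10 genes lower in the direct comparison (5.24% of all genes). Depth did not limit these genes, all of which were far above 3 counts.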
